A study of Mus musculus with 2 samples.

Results

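The genes described here encode membrane transporters for amino acids, sugars and monocarboxylates. They were taken by a rule on gene names, which was chosen with earlier results of these data known. The rule took every gene whose single platform symbol belongs to the families Slc1a, Slc2a, Slc3a, Slc5a, Slc6a, Slc7a, Slc16a, Slc36a, Slc38a or Slc43a, with 1 gene of the Slc1a family set aside. This gave 68 of the 12393 genes on the array, each read from its brightest probe set, the group of probes that reports 1 transcript. The Slc36a family had 0 genes here.

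The samples were liver RNA of mice lacking apolipoprotein E, the ligand that clears lipoprotein remnants, hybridised to Affymetrix arrays. The sample titled orujo came from mice on a high fat diet to which the unsaponifiable fraction of olive oil was added (the oil's minor components other than fatty acid esters), and the sample titled olive from mice with olive oil itself in such a diet; they are called the orujo and the olive oil array. The sources used here do not give strain, sex, age, feeding time or whether RNA of several animals was pooled. There was 1 array per diet, so no difference below has an error between animals and no test of the diets was possible.

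Transporters of the Slc families set which nutrients enter or leave a hepatocyte. Sodium-coupled carriers of the Slc38a and Slc6a families pull amino acids and osmolytes inward, Slc7a proteins exchange or carry cationic and neutral amino acids, often as the light chain of a heavy chain from the Slc3a family, and Slc2a and Slc16a proteins let sugars, and lactate, pyruvate or ketone bodies, pass along their gradients. In liver this uptake feeds the urea cycle, gluconeogenesis and glutathione synthesis.

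Both arrays were scaled to the same trimmed mean, and a floor at the median of all scaled signals (35.6) stood in for detection calls. Genes exceeding the floor on both arrays are termed quantified, with a log2 ratio of orujo over olive oil. Of the 68 transporter genes, 26 were quantified (38.2%, against 53.6% of all genes and 61.4% of 176 other Slc genes). On neither array did 37 exceed the floor (54.4%, against 38.5% of all genes and 34.1% of the other Slc genes). The floor was exceeded on the orujo array alone by 2 and on the olive oil array alone by 3. Over all 12393 genes these counts were 394 and 584. Hepatocyte markers were quantified in 16 of 16 cases, with log2 ratios from −0.39 to 0.49. In 1453 genes read by exactly 2 quantified probe sets, the difference between both log2 ratios put the noise of a single probe set at an SD of 0.31. This covers differences between probe sets of a gene on the same arrays. It leaves out any error of an RNA sample or array that both probe sets share, and all variation between animals. Ratios from bulk RNA cannot tell fewer cells of a type from less RNA per cell.

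The amino acid carriers Slc3a1 and Slc7a2 were the transporter genes at least 2-fold higher on the orujo array, and 0 were at least 2-fold lower. These 2 of 26 quantified genes compare with 1.36% of all 6640 quantified genes past 2-fold upward and 0.979% past 2-fold downward. Of 108 quantified other Slc genes, 4 (3.70%) were past 2-fold upward and 1 (0.926%) downward. At 1.5-fold the shares of these 108 were 10.2% upward and 3.70% downward. At a limit of 1.5-fold, the same 2 genes were higher (5.57% of all quantified genes) and 4 were lower, namely Slc6a6, Slc6a13, Slc43a3 and Slc2a8 (5.56% of all quantified genes). The median log2 ratio of the 26 was −0.05, beside −0.02 for all quantified genes and 0.05 for 108 quantified other Slc genes. There were 12 positive and 14 negative ratios, and 19 of the 26 were within 0.5 log2 units of 0.

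**Figure D1:**
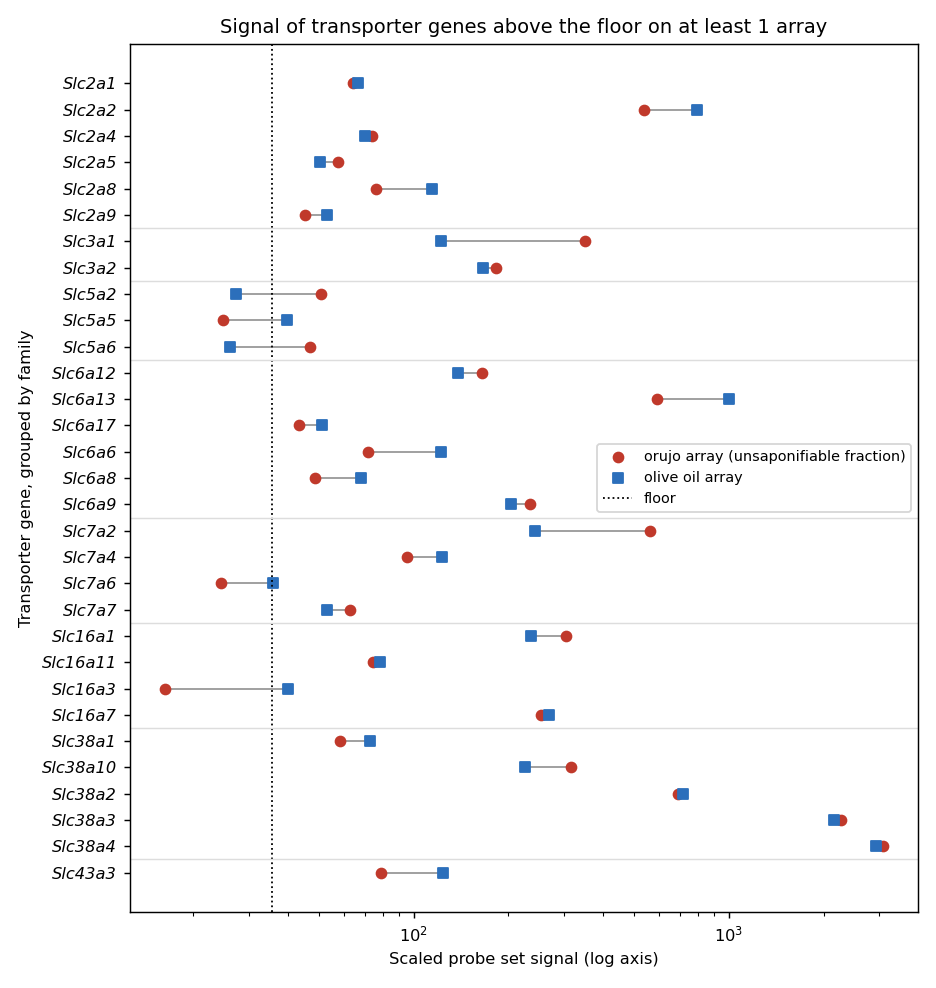
Scaled probe set signal (log axis) of the 31 transporter genes above the floor (dotted line, 35.6) on at least 1 array, grouped by family, with a red circle for the orujo array and a blue square for the olive oil array (1 array each). The widest gaps with both points above the floor are those of Slc3a1 and Slc7a2, higher on the orujo array.

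**Figure D2:**
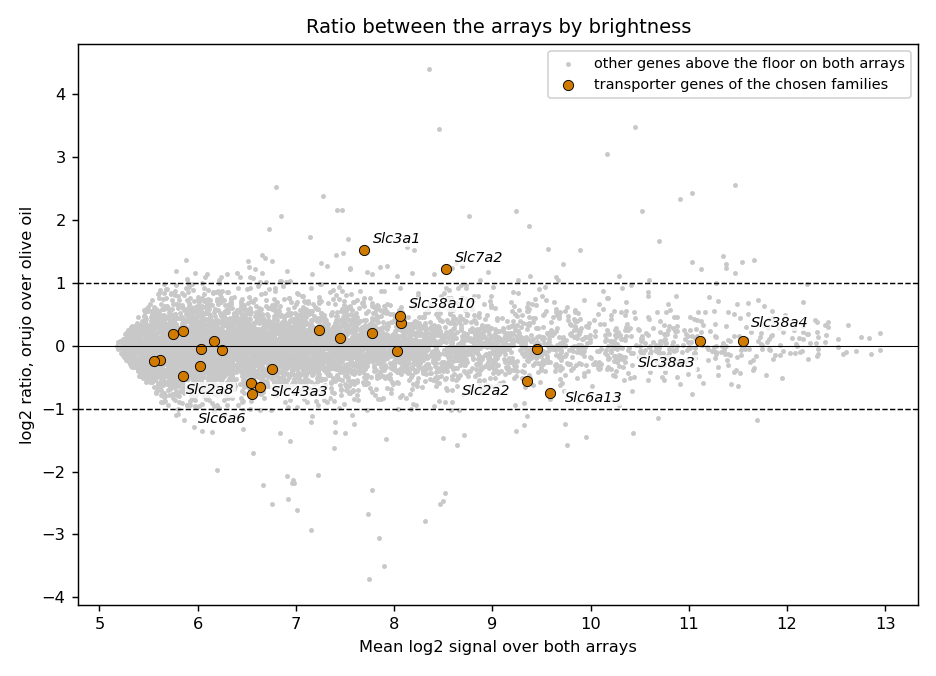
Log2 ratio of the orujo over the olive oil array against the mean log2 signal, for 6640 quantified genes (grey) and the 26 quantified transporter genes (orange), with dashed lines at 2-fold. Slc3a1 and Slc7a2 lie above the upper line and 0 transporter genes lie below the lower one.

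Among the heavy chains, which bring light-chain transporters to the membrane, Slc3a1 differed most and Slc3a2 little. Slc3a1, also called rBAT, forms the cystine and dibasic amino acid exchanger of kidney and gut, and its loss causes cystinuria. Its signal was 351 on the orujo array and 122 on the olive oil array, 2.87-fold higher (log2 ratio 1.52), from its single probe set. That placed it 25th from the top among 6640 quantified genes. Of the 1660 quantified genes in its brightness class (1 of 4 equal classes), 1.20% reached 2-fold higher. Its known light-chain partner Slc7a9 was below the floor on both arrays, at 5.61 and 19.5, as was Slc7a13, a second partner of rBAT, at 16.1 and 21.3. Slc3a2, or 4F2hc, which serves the light chains Slc7a5 to Slc7a8, Slc7a10 and Slc7a11, had signals of 182 and 167 (log2 ratio 0.13). So of both heavy chains, one was higher by more than the noise of a probe set and the other was not.

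The promoter of Slc3a1 is shown because this gene had the highest ratio, and those of Slc2a2 and Slc2a8 because these sugar carriers, described further on, were both lower by about 1.5-fold. Each is the 250 bases before the gene's start in RefSeq (GRCm38.p6). The windows available here covered 47 of the 68 genes and 17 of the 26 quantified ones. Slc7a2 had no such window and is not shown. Slc3a1 is at chr17:85028097-85028346 (plus strand), Slc2a2 at chr3:28697653-28697902 (plus strand) and Slc2a8 at chr2:32982084-32982333 (minus strand). Capitals mark matches, on either strand, to 7 motifs: TGATGNAA (ATF4 with C/EBP), TTCNNNGAA (STAT), TTGCNNAA (C/EBP), TGACNNNGC (antioxidant response element), CACGTG (E-box), TGTTTAC (forkhead) and TATAAA (the core of the TATA box).
Slc3a1: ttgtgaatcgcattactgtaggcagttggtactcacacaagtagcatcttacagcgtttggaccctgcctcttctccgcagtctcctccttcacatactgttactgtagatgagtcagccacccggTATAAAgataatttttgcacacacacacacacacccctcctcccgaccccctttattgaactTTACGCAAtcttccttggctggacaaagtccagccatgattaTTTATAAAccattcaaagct
Slc2a2: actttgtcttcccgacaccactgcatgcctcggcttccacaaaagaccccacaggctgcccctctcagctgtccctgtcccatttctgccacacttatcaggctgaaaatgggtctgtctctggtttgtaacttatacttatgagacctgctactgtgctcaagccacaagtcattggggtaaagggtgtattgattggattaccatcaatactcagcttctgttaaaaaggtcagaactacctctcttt
Slc2a8: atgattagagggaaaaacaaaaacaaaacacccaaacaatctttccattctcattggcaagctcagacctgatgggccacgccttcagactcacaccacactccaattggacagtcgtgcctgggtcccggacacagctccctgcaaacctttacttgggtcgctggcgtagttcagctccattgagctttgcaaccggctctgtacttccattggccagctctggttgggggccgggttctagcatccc

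The Slc3a1 window held a C/EBP match, 62 to 55 bases before the start, a form found in 9.56% of all 32851 windows of this length. It also held TATAAA matches, one 124 to 119 bases before the start and a pair, on opposite strands and overlapping, 20 to 13 bases before it; TATAAA was in 12.4% of windows. The Slc2a2 and Slc2a8 windows held 0 matches to any of the 7. The shares for the other motifs were 3.45% for the ATF4 form, 7.02% for STAT, 10.2% for the antioxidant response element, 6.02% for the E-box and 3.17% for forkhead. A match is a description of letters and not a bound site.

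Slc7a2, the cationic amino acid transporter CAT2 that carries arginine, lysine and ornithine, was the other gene past 2-fold. The brightest probe set read 562 on the orujo array and 242 on the olive oil array, 2.32-fold higher (log2 ratio 1.21), the 52nd highest ratio among quantified genes. In its brightness class, the top one, 2.47% of genes reached 2-fold higher. A second probe set read 311 and 151, 2.06-fold higher. The third read 121 and 109, only 1.11-fold higher, so the probe sets disagreed by up to 1.07 log2 units, beside an SD of 0.44 for the difference between paired probe sets of a gene. With the mean of the 3 (log2 ratio 0.80) Slc7a2 no longer passed 2-fold and Slc3a1 alone remained. Of the remaining Slc7a genes, Slc7a7, the light chain y+LAT1 that exports cationic amino acids, read 62.9 and 53.2 (log2 ratio 0.24). Slc7a4, a relative of the cationic carriers, read 95.0 and 123 (−0.37). Slc7a6, or y+LAT2, exceeded the floor on the olive oil array alone (35.9, against 24.5), by a margin of 1.01-fold. The other 9 were below the floor on both arrays. Among them were Slc7a1, the widely expressed arginine carrier CAT1 (26.1 and 11.4), the leucine carriers Slc7a5 (20.4 and 13.7) and Slc7a8 (15.6 and 12.9), and the cystine and glutamate exchanger Slc7a11, a target of NRF2 and ATF4 (29.5 and 14.5). Slc7a3, Slc7a10, Slc7a12 and Slc7a13 completed the group with Slc7a9. No ratio is given for these, since signals below the floor have no order here.

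**Figure D3:**
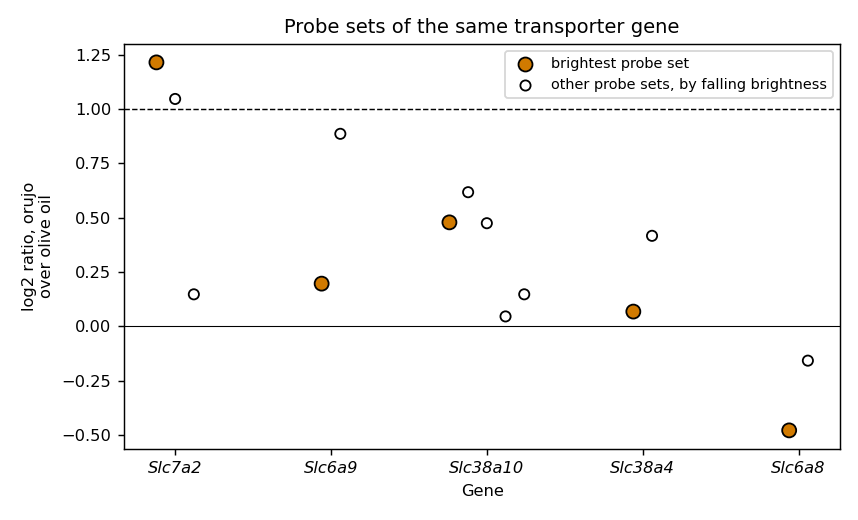
Log2 ratio of every quantified probe set of the 5 transporter genes that had more than 1, with the brightest probe set of each gene in orange and the others, by falling brightness, in white; the dashed line is 2-fold. The ratio of Slc7a2 ranges from 0.15 to 1.21 over 3 probe sets, and within each of the 5 genes all ratios have the same sign.

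On the same arrays, genes marking other cells also differed. Of 12 neutrophil markers, S100a8, S100a9, Mmp8 and Csf3r exceeded the floor on the orujo array alone, against 0 on the olive oil array alone. Over all 12393 genes these counts were 394 and 584. Beside a floor of 35.6, S100a8 read 60.8 on the orujo array and 17.2 on the olive oil array, and S100a9 49.2 and 20.8. Mmp8 (40.4 and 25.7) and Csf3r (49.75 and 31.9) were nearer to the floor. Of the 6 neutrophil markers quantified on both arrays, 4 had negative ratios (median of the 6, −0.07). Mmp9 read 39.2 on the orujo array and 78.5 on the olive oil array (log2 ratio −1.001). Mpo (−0.40), Ltf (−0.11) and Ngp (−0.03) were nearer to 0, while Elane (0.34) and Lcn2 (3.05) were higher. The summed signal of that list was 3775 against 819, of which Lcn2, a gene that hepatocytes also make, gave 3308 against 400.5. Kupffer cell and macrophage markers summed to 5020 and 4512, 15 of 15 quantified, at a median of 0.11 (log2). The array's control for 18S ribosomal RNA differed by 2.54 (log2) at its 5′ end and by 0.34 at its 3′ end, so its 3′ to 5′ ratio was 2.40 on the orujo array and 11.0 on the olive oil array. That ratio was also lower on the orujo array for the controls Gapdh (0.886 against 0.906), beta-actin (1.15 against 1.36), pyruvate carboxylase (2.75 against 3.24) and the transferrin receptor (1.51 against 1.96), the last from signals below the floor. The part of any of these in the ratios of Slc3a1 and Slc7a2 was not tested.

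The sodium-coupled neutral amino acid transporters of the Slc38a family, which carry glutamine, alanine and their like into hepatocytes, differed little. Slc38a4, or SNAT4, read 3077 on the orujo array and 2936 on the olive oil array, and Slc38a3, the glutamine and histidine carrier SNAT3, read 2265 and 2160. Both had log2 ratios of 0.07, which turned to −0.03 and −0.07 under quantile normalization. A second probe set of Slc38a4 read 683 and 512 (0.42). Slc38a2, or SNAT2, a transporter that cells induce when amino acids are short, read 690 and 718 (−0.06). Slc38a1 read 58.5 and 72.7 (−0.32). Slc38a10, a less studied member, was highest in the family, at 315 and 226 (0.48), and its 5 quantified probe sets ranged from 0.05 to 0.62. Slc38a5 was below the floor on both arrays, at 3.90 and 27.0. The median of the 5 quantified genes was 0.07 and 0 passed 1.5-fold.

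The Slc6a family, which couples uptake to sodium and chloride, held the 2 lowest ratios among the transporters. Slc6a6, the taurine transporter, read 71.7 on the orujo array and 122 on the olive oil array, 1.71-fold lower (log2 ratio −0.77), the 157th lowest of 6640; its other 2 probe sets were below the floor. Slc6a13, or GAT2, which takes GABA and taurine into hepatocytes, read 593 and 999.6, 1.69-fold lower (−0.75, the 167th lowest). Taurine is the amino acid that mouse liver joins to bile acids. Slc6a8, the creatine transporter, read 48.7 and 67.9 (−0.48), with −0.16 in its second probe set. Slc6a17, a vesicular amino acid carrier of neurons, read 43.4 and 51.1 (−0.24). By contrast, Slc6a9, the glycine transporter GlyT1, read 234 and 204 (0.20), with 0.89 in a second probe set, and Slc6a12, the betaine and GABA transporter BGT1, read 165 and 138 (0.25). The family median was −0.36 over 6 quantified genes, of which 4 were negative (52.5% of all quantified genes were). The other 9, among them the transporters of noradrenaline, dopamine and serotonin (Slc6a2, Slc6a3 and Slc6a4), were below the floor on both arrays, with signals from 1.20 to 32.9. Slc6a5, Slc6a14, Slc6a15, Slc6a18, Slc6a20a and Slc6a20b were the rest.

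In the Slc2a family of sugar transporters, 4 of 6 quantified genes had negative ratios, beside 52.5% of all quantified genes. Slc2a2, or GLUT2, the main glucose carrier of hepatocytes, read 539 on the orujo array and 792 on the olive oil array, 1.47-fold lower (log2 ratio −0.56, the 422nd lowest). Slc2a8, or GLUT8, an intracellular glucose carrier, read 76.1 and 115, 1.51-fold lower (−0.59). Slc2a9, a urate transporter, read 45.2 and 53.1 (−0.23). The others stayed close to equal: Slc2a1, the widespread GLUT1, read 64.5 and 66.6 (−0.05), Slc2a4, the insulin-regulated GLUT4 of muscle and fat, 73.6 and 70.0 (0.07), and Slc2a5, the fructose carrier GLUT5, 57.6 and 50.4 (0.19). Slc2a3 and Slc2a10 were below the floor on both arrays. The median over the 6 quantified genes was −0.14, and 1 of them was at least 1.5-fold lower.

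Of 3 quantified monocarboxylate transporters of the Slc16a family, 0 passed 1.5-fold. Slc16a1, or MCT1, a carrier of lactate, pyruvate and ketone bodies, read 304 on the orujo array and 236 on the olive oil array (log2 ratio 0.36). Slc16a7, or MCT2, read 254 and 269 (−0.08), and Slc16a11, linked to hepatic lipid metabolism, 74.2 and 78.0 (−0.07). Slc16a3, or MCT4, the lactate exporter of glycolytic cells, exceeded the floor on the olive oil array alone, at 39.9 against 16.3, which is a bound of at least 1.12-fold lower on the other array. Slc16a4, Slc16a6 and Slc16a8 were below the floor on both. Bsg, the chaperone that brings MCT1 to the membrane, read 1362 and 913 (0.58).

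Slc43a3, a carrier of purine nucleobases and the single Slc43a gene here, read 79.1 on the orujo array and 124 on the olive oil array, 1.57-fold lower (log2 ratio −0.65). Of 11 Slc5a genes, which use the sodium gradient, 0 were quantified. Slc5a2, the renal glucose carrier SGLT2, exceeded the floor on the orujo array alone, at 50.8 against 27.3, at least 1.42-fold higher. This came from a probe set whose suffix marks shared sequence. A second Slc5a2 probe set was below the floor on both arrays (18.9 and 25.9). Slc5a6, the multivitamin carrier of biotin and pantothenate, also exceeded the floor on the orujo array alone, at 46.9 against 26.1, at least 1.32-fold higher. Slc5a5, the iodide carrier of the thyroid, exceeded the floor on the olive oil array alone, at 39.7 against 24.8. The other 8 Slc5a genes had signals from 1.10 to 35.5: Slc5a1, Slc5a3, Slc5a4a, Slc5a4b, Slc5a7, Slc5a8, Slc5a9 and Slc5a11. All 5 Slc1a genes analysed (Slc1a1, Slc1a3, Slc1a4, Slc1a5 and Slc1a6), carriers of glutamate or of small neutral amino acids, were below the floor on both arrays, with signals from 1.40 to 20.0.

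Transcripts of the exocrine pancreas were also lower on the orujo array, as were Slc6a6, Slc6a13, Slc43a3, Slc2a8 and Slc2a2. Of 15 pancreas markers, 12 were quantified and 12 were at least 2-fold lower (median log2 ratio −2.60), beside 0.979% of all 6640 quantified genes. Pnliprp1, Pnliprp2 and Sycn exceeded the floor on the olive oil array alone, and 0 did on the orujo array alone. Over all 12393 genes these counts were 584 and 394. The summed signal of the 15 pancreas markers was 1126 against 7108. Markers of pancreatic islets were below the floor on both arrays in 9 of 11 cases, among them Ins2 at 4.30 and 24.5. Sst (40.8 and 22.3) and Pcsk1 (36.0 and 12.6) exceeded the floor on the orujo array alone. The summed signal of the islet list was 132 against 133. Each of the 12 quantified pancreas markers had a larger fold than any of these 5 transporters, and the part of these markers in the transporters' ratios was not tested.

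Lists of linked genes had medians between −0.02 and 0.12, save for the mTORC1 list, and a few members past 2-fold. The amino acid response list held targets that the factor ATF4 induces when amino acids are scarce, and also Atf4 itself and the kinase gene Eif2ak3. Of its 26 quantified genes, 14 were higher and 12 lower, with a median of 0.01. Ddit4, an inhibitor of mTORC1, was at 2.15 and Phgdh, of serine synthesis, at −1.70. Asns, asparagine synthetase, was at 0.84 and Atf4 at 0.53. The ATF4 targets Trib3 and Chac1 were at −0.04 and 0.01, and Ddit3 was at −0.94. Of 19 quantified genes of mTORC1 amino acid sensing, 14 were negative (52.5% of all quantified genes were) and the median was −0.25. Sesn1, an mTORC1 inhibitor, was highest at 1.40 and Lamtor4, a subunit of the lysosomal anchor of mTORC1, lowest at −0.61. Amino acid breakdown and urea cycle enzymes had a median of 0.10 over 33 quantified genes. Of these, 3 were past 2-fold upward (1.36% of all quantified genes were) and 0 downward (0.979%). The 3 higher ones were Uroc1, of histidine breakdown (1.52), the aspartate transaminase Got1 (1.42) and Aass, of lysine breakdown (1.30). Arg1 and Asl of the urea cycle were at 0.49 and 0.54, Glul, glutamine synthetase, at 0.58, and Cth, which makes cysteine, at 0.54. Of the 33, 19 were positive and 14 negative. The lowest was Shmt1 at −0.57, and Otc of the urea cycle was at −0.19.

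Genes that handle glucose inside the hepatocyte had a median of 0.04 over 12 quantified, with 6 on each side. Gys2 was highest at 0.72. Slc37a4, the glucose 6-phosphate carrier of the endoplasmic reticulum, was at 0.43 and G6pc at 0.43. Pklr, pyruvate kinase, was lowest at −0.71, and Pygl was at −0.63. Enzymes of lactate, pyruvate and ketone bodies had a median of −0.02 over 12, from Bdh1, which makes the ketone body hydroxybutyrate, at −0.43 to Pdk1 at 0.48, with Ldha, lactate dehydrogenase A, at 0.39. Pdk4 exceeded the floor on the orujo array alone, at 96.2 against 20.6. Transporter partners and traffic regulators had a median of 0.12 over 8 quantified genes, from Pdzk1, a scaffold of membrane transporters, at −0.74 to Bsg at 0.58. None of the medians has a test, since there was 1 array per diet.

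**Figure D4:**
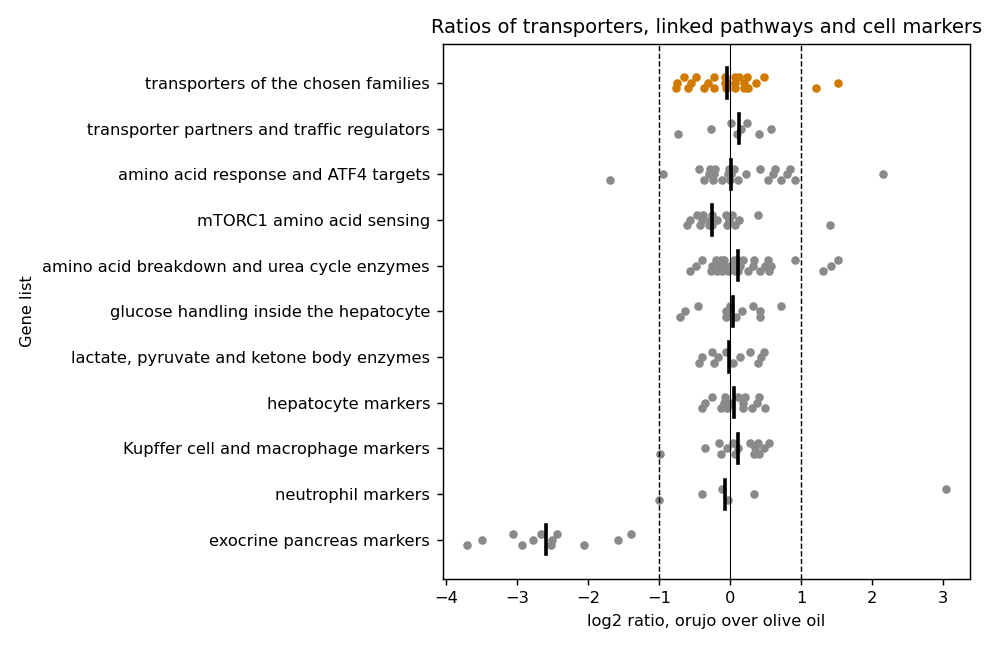
Log2 ratio of each quantified gene (points) and the list median (black bar) for the transporter genes (orange), for lists of linked pathways and for markers of cell types (grey), with dashed lines at 2-fold. The transporter median is −0.05 and the exocrine pancreas markers all lie below −1, with a median of −2.60.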

How the data were processed

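The authors deposited linear intensities of 22690 probe sets for each of 2 arrays, made from about 8 µg of total RNA per the labels. Their trimmed mean (2% from each end) was 100.0 on both arrays. The sources used here name no summarising software. Precision is limited by having 1 array per diet.

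After removal of 64 control probe sets, both arrays were rescaled to a common trimmed mean (factors 1.001 and 0.999), values below the floor (the 50th percentile, 35.6) were set to the floor before taking log2. Genes were named from probe sets with 1 platform symbol (20380), and each is read from its brightest probe set by mean log2 signal; the Entrez identifiers of 68 of 68 transporter genes matched RefSeq of GRCm38.p6. Promoter windows came from RefSeq. The calculation was tested on simulated data. Transporters described singly were those past 2-fold, the highest and lowest of each family, and known hepatic carriers; the others are named with their status. The members, lists and rules were chosen with earlier results of these data known. Python 3.11.15, pandas 2.3.3, NumPy 2.4.6, SciPy 1.17.1 and statsmodels 0.14.6 were used. The alternatives tried were unscaled values, quantile normalization, loess (span 0.4), ratios centred at their median, the 25th or the 75th percentile as floor, log2(value + floor), averaging the quantified probe sets of a gene, dropping probe sets whose suffix marks sequence shared between transcripts, a 1.5-fold limit, and a mean for the median.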

Additional observations from a re-analysis of the deposited data

How the results depend on the processing

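The count of transporter genes at least 2-fold higher (2) became 4 with the floor at the 25th percentile, through Slc5a4b and Slc7a11, and 1 with the mean over quantified probe sets, which left Slc3a1; it was 2 under the other alternatives. The count at least 2-fold lower (0) became 1 with the floor at the 25th percentile, through Slc16a3, and 4 with the limit of 1.5-fold; it was 0 under the others. The median log2 ratio (−0.05) became 0.13 with the floor at the 75th percentile, where 13 transporter genes were quantified. Of 218 ratios of single genes under alternatives, 216 moved by less than the noise of a probe set. The other 2 were Slc7a2 (1.21 to 0.80) and Slc6a9 (0.20 to 0.54), both with the mean over quantified probe sets. Several alternatives could hardly move a ratio. Another floor leaves the ratio of a gene still quantified as it was. Unscaled values shift all ratios slightly and alike, and averaging acts only on the 5 genes with several quantified probe sets. Genes that lost their ratio under an alternative are not among the 218, so this count is a weak measure of stability. Slc38a3 and Slc38a4 were among the 216, although their sign changed under quantile normalization. Slc3a1 ranged from 1.29 to 1.54. No paired analysis was possible because each diet had 1 array. Signals below the floor on both arrays left 37 genes with no ratio.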
